A study of Mus musculus with 12 samples.

Results

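The class 3 semaphorins are secreted guidance proteins, and their RNA and that of 3 of their receptors was followed here in mouse fat. The 10 genes were the ligands Sema3a, Sema3b, Sema3c, Sema3d, Sema3e, Sema3f and Sema3g, the co-receptors Nrp1 and Nrp2, and the receptor Plxnd1. They were chosen by name from 22180 genes measured on 12 Affymetrix arrays, and each had 1 probe set annotated to it alone. All material was freshly taken from C57BL/6 mice, with 3 arrays in each of 4 groups. These were adipose progenitor preparations from visceral perigonadal fat (AP from VAT), the same preparations from subcutaneous inguinal fat (AP from SAT), and unfractionated adipose tissue from each of those depots (AT from VAT and AT from SAT). AP cells were what was left of the enzymatically released stromal vascular fraction, from depots of several mice, after magnetic beads had taken out CD31-positive endothelium and blood cells of the hematopoietic lineages. For AT the labels name no dissociation. Values are the deposited log2 intensities from the robust multi-array average (RMA), and a difference of 1 on this scale is a doubling of intensity. The number of arrays limits the precision. Levels of single probe sets were not set against each other, only against those of all probe sets where low values are marked.

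Class 3 semaphorins act on neighbouring cells by binding neuropilins, which hold the ligand, and plexins, which carry the signal inward and loosen the cytoskeleton and its contacts. They were first known for repelling growing axons, and they also steer blood and lymphatic vessels, where neuropilins are shared with the vascular endothelial growth factors (VEGFs). Sema3e is the exception in that it binds Plxnd1 directly, without a neuropilin. In fat, nerves, vessels and macrophages are all possible receivers of these signals.

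Most of the ligands were higher in progenitor preparations than in whole tissue, while the neuropilins were not. In SAT, 6 of the 7 ligands rose in AP relative to AT, led by Sema3b (3.66-fold) and Sema3e (3.35-fold), and Sema3g, Nrp1 and Nrp2 fell (the calls of Sema3g and Nrp1 were lost when arrays were scaled to housekeeping genes). Among the 6, the call of Sema3a was lost when any 1 of 9 of the 12 arrays was left out. In VAT, 3 ligands rose, Sema3b, Sema3d and Sema3f, and Sema3g fell on the deposited scale but differed by 0.05 with housekeeping scaling. Calls were made with limma where the Benjamini-Hochberg adjusted p over all 22180 genes was under 0.05. This gave 9 of the 10 genes called in SAT, where 32.4% of all genes were called (16.1% higher in AP and 16.3% lower), and 4 of 10 in VAT, where 32.6% were called (15.8% higher and 16.8% lower). The share in VAT was thus near that of all genes. The median log2 difference of the 10 genes was 0.52 in SAT and 0.04 in VAT, beside 0.03 in each depot for all genes. Averaged over both depots, 5 genes rose and 3 fell (Sema3g, Nrp1 and Nrp2), where 42.5% of all genes were called, 22% higher and 20.5% lower. With housekeeping scaling, 7 rose and 0 fell: Sema3a and Plxnd1 were added, Sema3g was at -0.005, and Nrp1 and Nrp2 turned to 0.16 and 0.06. The limits of this scaling are given below.

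Between the depots, Sema3e set the largest difference among the 10 genes. It was 5.24-fold lower in VAT than in SAT among progenitors and 2.42-fold lower among whole tissues. Sema3f ran the other way in both materials, and Nrp2 was higher in VAT than in SAT among progenitors but lower among whole tissues. In AP, 2 of the 10 genes were called higher in VAT (Sema3f and Nrp2) and 3 lower (Sema3b, Sema3c and Sema3e), where 5.64% of all genes were called, 3.03% higher and 2.6% lower. In AT, 1 was called higher (Sema3f) and 3 lower (Sema3e, Nrp1 and Nrp2), where 4.55% of all genes were called, 2.8% higher and 1.75% lower; with housekeeping scaling, or without replicate 3 of AT from SAT, 2 were called, as Nrp1 and Nrp2 were lost. The medians of the 10 genes were -0.13 in AP and -0.01 in AT, and those of all genes were 0.00 in both. The depot difference itself differed between AP and AT for Sema3c and Nrp2, 1 gene in each direction, where 2.15% of all genes had such an interaction, 0.987% higher and 1.16% lower. Of these, the Sema3c call (adjusted p = 0.0496) was lost when any 1 of 11 arrays was left out and under 5 of the other settings, while that of Nrp2 was kept in each of these.

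**Figure D1:**
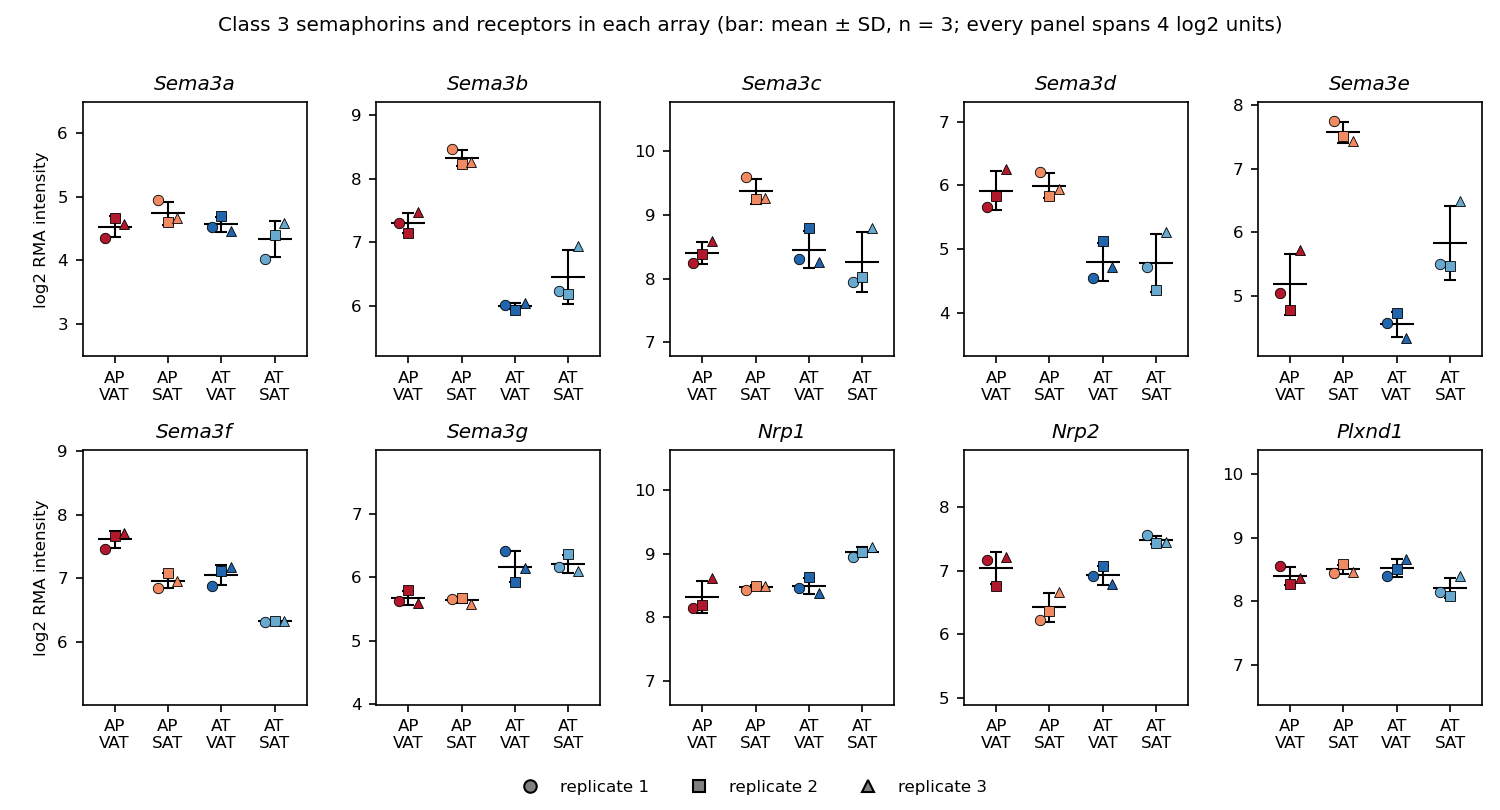
The 10 genes in each of the 12 arrays, as log2 RMA intensity; horizontal bars are group means with the SD of 3 arrays, and every panel spans the same number of log2 units around its own level. Sema3e in AP from SAT lies above all other arrays, at 7.44 to 7.76, while in AP from VAT it lies between 4.78 and 5.72.

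The arrays were checked against markers of the cells they could hold. The mean over 7 adipocyte genes was 5.72 to 6.31 in AP arrays and 10.50 to 10.90 in AT arrays, and that over 7 progenitor genes was 9.47 to 10.18 in AP and 7.56 to 8.74 in AT. The mean over 10 blood endothelium genes was 5.63 to 5.77 in AP and 7.01 to 7.51 in AT, and 8 of the 10 fell in AP in both depots, while Tek rose. All 6 macrophage genes fell in AP in both depots. The mean over 6 pericyte and smooth muscle genes was 9.49 to 9.85 in AP and 7.40 to 7.69 in AT. Of these genes, 4 rose in AP in SAT and all 6 in VAT. Their part in the semaphorin differences was not tested. Mesothelium genes, which mark the lining of visceral fat, were high in AP from VAT (8.36 to 8.78) and low in AP from SAT (5.32 to 5.59), and 8 of 8 were called higher in VAT among both AP and AT. Immediate early and heat shock genes, which dissociation is known to induce, stood at 10.99 to 11.23 in AP and 5.82 to 6.21 in AT, and 8 of 8 rose in AP in both depots. Dissociation and cell selection are described for AP alone, so their parts in any AP difference cannot be told apart. In these bulk samples, fewer cells of a type and less RNA per cell cannot be told apart either.

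One array of whole subcutaneous tissue stood apart in the ligands. Replicate 3 of AT from SAT exceeded the mean of the other replicates by 1.00 log2 units for Sema3e, 0.82 for Sema3c, 0.73 for Sema3b and 0.72 for Sema3d. Sema3f (0.01) and Sema3g (-0.16) did not share this. In the same array, 7 of 7 progenitor markers were higher (median 0.83), 6 of 6 macrophage markers were higher (median 0.71) and 5 of 5 brown fat markers were lower (median -1.48), while the median of all genes was -0.02. Their part in the results was not tested. Without that array, the count of the 10 genes called was 10 in SAT (Plxnd1 added) and 5 in VAT (Sema3e added) for AP against AT, 5 for the depots in AP, 2 for the depots in AT (Nrp1 and Nrp2 lost), and 4 for the interaction (Sema3b and Sema3e added). Over all genes the counts without it were 6797 in SAT (7186 with it), 7266 in VAT (7239), 1374 for the depots in AP (1250), 1026 in AT (1009) and 626 for the interaction (476).

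**Figure D2:**
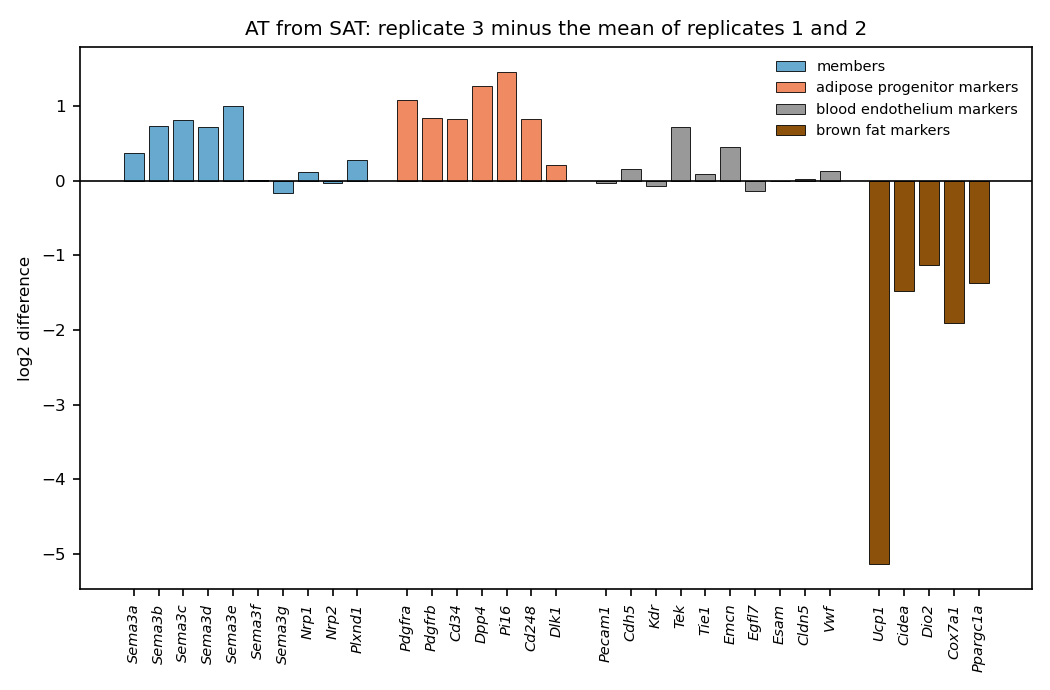
Log2 difference of replicate 3 of AT from SAT from the mean of replicates 1 and 2, for the 10 genes and 3 marker lists. Sema3b, Sema3c, Sema3d and Sema3e lie between 0.72 and 1.00, and Ucp1, a heat-producing protein of brown fat, lies lowest of the bars.

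The promoters of Sema3e, Sema3c and Nrp2 are shown because these genes had the largest depot difference or a depot difference that depended on the material. The sequences are those of RefSeq on GRCm38.p6, from 250 bases before to 50 bases after the annotated start, and the table held 8 of the 10 genes (all but Sema3b and Sema3f). Each is 300 bases on the + strand: Sema3e at chr5:14025026-14025325, Sema3c at chr5:17574566-17574865 and Nrp2 at chr1:62703067-62703366. Capitals mark GC boxes (GGGCGG or its complement CCGCCC) and E-boxes (CANNTG), found on both strands; in Nrp2 a pair of GC boxes overlaps.
Sema3e: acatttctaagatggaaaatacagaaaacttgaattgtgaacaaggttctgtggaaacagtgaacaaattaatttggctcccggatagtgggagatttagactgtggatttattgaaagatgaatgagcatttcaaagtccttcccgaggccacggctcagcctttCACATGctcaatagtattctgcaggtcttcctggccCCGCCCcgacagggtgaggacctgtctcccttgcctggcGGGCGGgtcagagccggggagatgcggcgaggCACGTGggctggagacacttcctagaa
Sema3c: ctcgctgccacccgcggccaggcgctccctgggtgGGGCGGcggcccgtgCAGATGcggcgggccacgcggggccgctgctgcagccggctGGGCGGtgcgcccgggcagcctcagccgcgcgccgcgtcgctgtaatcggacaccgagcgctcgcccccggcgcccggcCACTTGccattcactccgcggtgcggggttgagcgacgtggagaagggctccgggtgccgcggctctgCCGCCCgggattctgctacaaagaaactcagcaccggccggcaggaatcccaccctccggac
Nrp2: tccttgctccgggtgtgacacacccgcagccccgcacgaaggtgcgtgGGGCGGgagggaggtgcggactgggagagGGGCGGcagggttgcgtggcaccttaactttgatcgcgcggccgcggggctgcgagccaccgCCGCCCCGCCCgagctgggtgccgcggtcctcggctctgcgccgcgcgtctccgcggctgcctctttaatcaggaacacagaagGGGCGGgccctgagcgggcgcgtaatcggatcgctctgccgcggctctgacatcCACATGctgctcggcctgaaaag
Sema3e had 11 CpG dinucleotides and 50.7% G and C in this window, against 42 and 75.7% for Sema3c and 37 and 70.7% for Nrp2. The median of all 32851 promoters was 7 CpG, and 97.4% of them had no more CpG than Sema3c. GC boxes numbered 2 in Sema3e, 3 in Sema3c and 5 in Nrp2, and 35.7% of all promoters held at least 1. E-boxes numbered 2 in Sema3e, 2 in Sema3c and 1 in Nrp2, and 72.3% of all promoters held 1 or more. The letters TATAAA (in 13.6% of all promoters), CCAAT (37.4%), TGANTCA (7.81%) and AGGTGT (13.7%) were in none of the 3 windows.

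Sema3e, the Plxnd1 ligand that in obese mice has been linked to macrophage recruitment into visceral fat, was the gene most unequal between the depots. It had 5.05, 4.78 and 5.72 in AP from VAT, against 7.76, 7.52 and 7.44 in AP from SAT. In whole tissue it had 4.58, 4.74 and 4.34 in AT from VAT, against 5.51, 5.48 and 6.50 in AT from SAT. VAT and SAT did not overlap in either material, and every SAT-derived progenitor array lay above every array of the other groups. Sema3e fell by 2.39 ± 0.25 log2 units in VAT relative to SAT among AP (SE, adjusted p = 2.02e-05) and by 1.28 ± 0.25 among AT (adjusted p = 0.00756). Between materials it rose by 1.74 ± 0.25 in AP from SAT relative to AT from SAT (adjusted p = 5.37e-05), while in VAT the difference was 0.63 (95% interval 0.09 to 1.17, adjusted p = 0.0725); leaving out replicate 2 of AP from VAT or replicate 3 of AT from SAT made it pass, with an adjusted p down to 0.019. The order of levels ran from AP from SAT, at 7.57 ± 0.17 (SD, n = 3), through AT from SAT, at 5.83 ± 0.58, and AP from VAT, at 5.18 ± 0.48, to AT from VAT, at 4.55 ± 0.20. Neighbours below the first pair did not pass the test, with limma adjusted p = 0.0637 and 0.0725. The level in AT from VAT was low, near the array medians of all probe sets (4.49 to 4.67). Whether this narrowed the Sema3e differences that use AT from VAT was not tested. The interaction, the depot difference in AP less that in AT, was -1.11 ± 0.36 and did not pass (adjusted p = 0.152), but it passed without replicate 3 of AT from SAT (-1.45, adjusted p = 0.0125), and likewise when AP replicate 3 from VAT was omitted.

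The progenitor markers Pi16 and Dpp4, which label a progenitor state known from the connective tissue around fat lobules, were also lower in AP from VAT than in AP from SAT. The differences were -1.61 for Pi16 and -1.35 for Dpp4, and both were called. They were the only ones of 7 progenitor genes called between these groups. The mean over all 7, which includes them, was 9.47 to 9.62 in AP from VAT and 10.08 to 10.18 in AP from SAT, while Pdgfra differed by -0.03 and Pdgfrb by 0.01. Their part in the depot differences of the semaphorins was not tested, nor was that of the mesothelium genes above.

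Sema3b, a ligand that human lung cancers often lose, had the largest difference between progenitors and tissue of the 10 genes in each depot. Its values were 7.30, 7.15 and 7.47 in AP from VAT and 8.47, 8.24 and 8.27 in AP from SAT, against 6.01, 5.94 and 6.04 in AT from VAT and 6.24, 6.18 and 6.94 in AT from SAT. All 6 AP arrays lay above all 6 AT arrays. The rise was 1.87 ± 0.17 log2 units in SAT (SE, adjusted p = 2.99e-07) and 1.31 ± 0.17 in VAT (adjusted p = 1.39e-05). Among progenitors it was 2.03-fold lower in VAT than in SAT (log2 difference -1.02 ± 0.17, adjusted p = 0.000991). Among whole tissues the depots differed by -0.46 (95% interval -0.81 to -0.10), which did not pass the test (adjusted p = 0.163) although the arrays did not overlap. The order was AP from SAT, AP from VAT, AT from SAT, AT from VAT, and only the last 2 neighbours did not differ by the test.

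Sema3c, which can bind both neuropilins, acts in the developing heart, and it has been described as a secreted product of human fat cells. It was higher in progenitors than in tissue in SAT. Its values were 8.25, 8.38 and 8.59 in AP from VAT and 9.60, 9.25 and 9.27 in AP from SAT, against 8.31, 8.80 and 8.26 in AT from VAT and 7.95, 8.02 and 8.80 in AT from SAT. The AP arrays from SAT lay above all others, and the remaining groups overlapped. In SAT it rose by 1.12 ± 0.20 in AP relative to AT (SE, adjusted p = 0.000426), and in VAT the difference was -0.05 (95% interval -0.48 to 0.38, adjusted p = 0.88). Among progenitors it fell by 0.97 ± 0.20 in VAT relative to SAT (adjusted p = 0.0084; leaving out replicate 1 of AP from SAT gave 0.0541), and among whole tissues the difference was 0.20 (adjusted p = 0.72). The interaction was -1.17 ± 0.29 with an adjusted p of 0.0496 in limma, close to the threshold. Leaving out replicate 3 of AT from SAT kept it, at -1.44 (adjusted p = 0.00293). It was lost when any of the other 11 arrays was left out, with values of -1.27 to -0.995 and adjusted p of 0.0528 to 0.138.

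**Figure D3:**
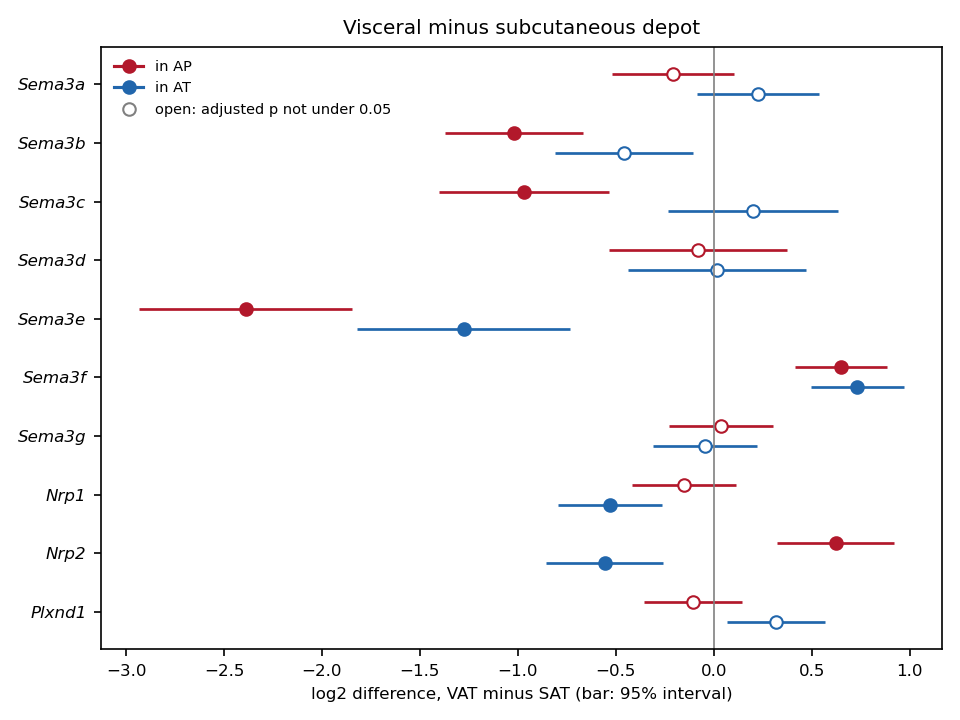
Log2 difference of VAT minus SAT for the 10 genes, in AP and in AT, with 95% intervals from limma; filled points have an adjusted p under 0.05. Sema3e lies furthest to the left in both materials (-2.39 and -1.28), Sema3f lies at 0.65 and 0.73, and Nrp2 changes side, at 0.62 in AP and -0.56 in AT.

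Sema3d and Sema3f were higher in progenitors of both depots by similar amounts. Sema3d, which in mouse embryos confines the vessels that form the pulmonary veins, had 5.66, 5.83 and 6.26 in AP from VAT and 6.21, 5.84 and 5.94 in AP from SAT. In whole tissue it had 4.55, 5.12 and 4.71 in AT from VAT and 4.71, 4.36 and 5.26 in AT from SAT. Every AP array lay above every AT array, and the depots overlapped in both materials. The rise in AP was 1.22 ± 0.21 in SAT (2.33-fold, adjusted p = 0.000293) and 1.12 ± 0.21 in VAT (2.18-fold, adjusted p = 0.000671). The interval of its depot difference was -0.53 to 0.37 in AP and -0.44 to 0.47 in AT.

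Sema3f, a neuropilin-2 ligand that repels axons and lymphatic endothelium, combined a progenitor and a depot difference. It had 7.46, 7.66 and 7.72 in AP from VAT, against 6.88, 7.11 and 7.18 in AT from VAT. In SAT it had 6.85, 7.08 and 6.96 in AP, against 6.31, 6.33 and 6.33 in AT. Within each depot the AP arrays lay above the AT arrays, and within each material the VAT arrays lay above the SAT arrays. The rise in AP was 0.56 ± 0.11 in VAT (adjusted p = 0.00104) and 0.64 ± 0.11 in SAT (adjusted p = 0.000277). In VAT relative to SAT it rose by 0.65 ± 0.11 in AP (1.57-fold, adjusted p = 0.0016) and by 0.73 ± 0.11 in AT (1.66-fold, adjusted p = 0.000905). The middle of the order, AT from VAT at 7.06 and AP from SAT at 6.96, was not separated (adjusted p = 0.584). The interaction of -0.08 had an interval of -0.42 to 0.25.

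Sema3g was the one ligand that was lower in progenitors, and in mouse it is known as a product of arterial endothelium. It had 5.63, 5.80 and 5.59 in AP from VAT, against 6.41, 5.93 and 6.15 in AT from VAT. In SAT it had 5.66, 5.67 and 5.58 in AP, against 6.16, 6.36 and 6.10 in AT. All 6 AP arrays lay below all 6 AT arrays. Sema3g fell by 0.57 ± 0.12 in AP from SAT (adjusted p = 0.00192) and by 0.49 ± 0.12 in AP from VAT (adjusted p = 0.00623), but with arrays set to an equal median of housekeeping genes the differences were -0.06 and 0.05. The blood endothelium markers given above moved the same way, and their part in this was not tested. The depots differed by 0.04 in AP and -0.04 in AT, with intervals of -0.23 to 0.30 and -0.31 to 0.22.

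Sema3a, the classical axon repellent that acts through Nrp1 and A-type plexins, was low. Its group means of 4.34 to 4.74 lay near the array medians of all probe sets (4.49 to 4.67). Sema3a had 1 array below 4.09, the 40th percentile of all probe sets. It had 4.35, 4.67 and 4.57 in AP from VAT and 4.95, 4.61 and 4.66 in AP from SAT, against 4.53, 4.70 and 4.47 in AT from VAT and 4.03, 4.40 and 4.59 in AT from SAT. No 2 neighbours in the order of its 4 group means differed by the test. Its rise of 0.40 ± 0.15 in AP from SAT (adjusted p = 0.0475) was lost without 9 of the 12 arrays, each left out in turn (0.24 to 0.47, adjusted p 0.0502 to 0.25), and was kept (0.40 to 0.53) when the array omitted was AP replicate 1 from VAT, AT replicate 2 from VAT or AT replicate 3 from SAT. In VAT the difference was -0.04 (95% interval -0.35 to 0.27).

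**Figure D4:**
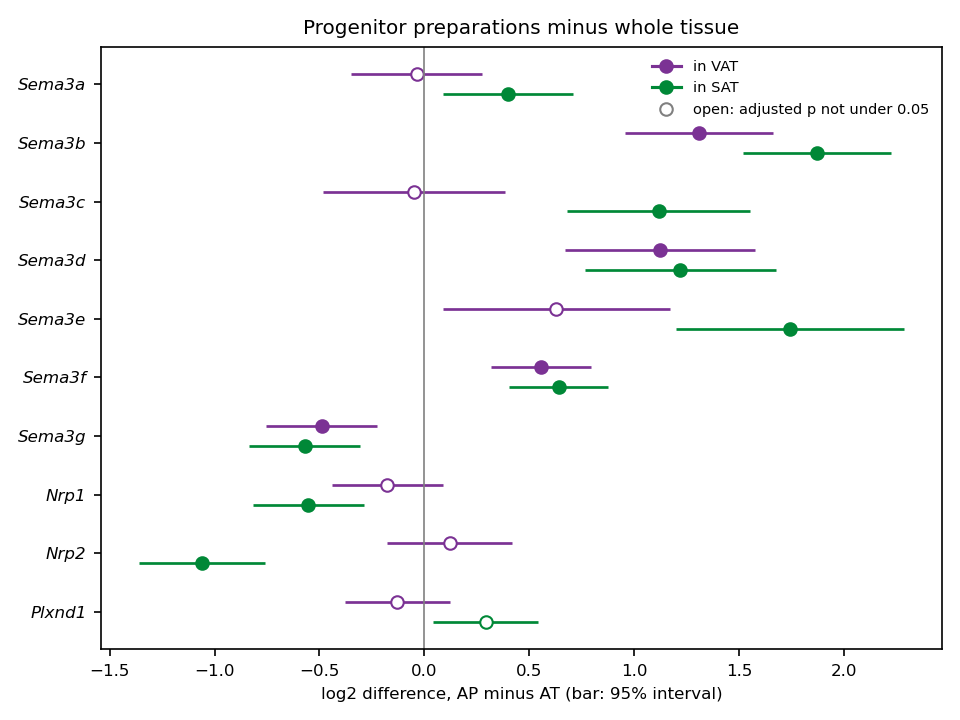
Log2 difference of AP minus AT for the 10 genes, in VAT and in SAT, with 95% intervals from limma; filled points have an adjusted p under 0.05. Sema3b, Sema3d and Sema3f lie right of 0 in both depots and Sema3g left of 0 in both on the deposited scale (0.05 in VAT with housekeeping scaling), while Nrp2 lies at 0.12 in VAT and -1.06 in SAT.

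Among the receptors, Nrp2 showed the clearest dependence on depot and material together. Nrp2, a co-receptor for Sema3f and VEGF-C and a marker of lymphatic vessels and veins, had 7.17, 6.76 and 7.21 in AP from VAT and 6.23, 6.37 and 6.67 in AP from SAT. In whole tissue it had 6.91, 7.08 and 6.79 in AT from VAT and 7.56, 7.43 and 7.46 in AT from SAT. The groups did not overlap within SAT or between depots, while in VAT the AP and AT arrays overlapped. In SAT it fell by 1.06 ± 0.14 in AP relative to AT (2.09-fold lower, adjusted p = 2.06e-05), and in VAT the difference was 0.12 (95% interval -0.18 to 0.42, adjusted p = 0.563). In VAT relative to SAT it rose by 0.62 ± 0.14 in AP (adjusted p = 0.0135) and fell by 0.56 ± 0.14 in AT (adjusted p = 0.0331). These opposite depot differences gave an interaction of 1.18 ± 0.20 (adjusted p = 0.0058), which passed in limma without each array in turn (1.08 to 1.32, adjusted p 0.00354 to 0.0208). The separate depot calls were less firm: that in AP was lost without replicate 1 or 3 of AP from VAT or replicate 1 or 2 of AP from SAT (adjusted p up to 0.0848). That in AT was lost without replicate 1 or 3 of AT from VAT, without any array of AT from SAT (adjusted p up to 0.129), and with housekeeping scaling. The order was AT from SAT, AP from VAT, AT from VAT, AP from SAT, with only the middle pair not separated.

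Lymphatic endothelium markers moved against Nrp2 between the whole tissues. Their mean over 6 genes was 6.57 to 6.79 in AT from VAT and 5.65 to 6.28 in AT from SAT, and 2 of the 6, Pdpn and Mmrn1, were called higher in VAT and none lower. In AP it was 5.62 to 5.73 in VAT and 5.70 to 5.89 in SAT. Pdpn went against most of the list between materials. It was called higher in AP than in AT in both depots, while Lyve1, Flt4 and Mmrn1 were called lower. Reln was called higher in AP in SAT and lower in VAT. The part of the lymphatic markers in the Nrp2 result was not tested. The blood endothelium mean was 7.01 to 7.43 in AT from VAT and 7.37 to 7.51 in AT from SAT. The endothelial VEGF receptor Kdr, which pairs with Nrp1 on blood vessels, had an interaction of the same sign as Nrp2, at 1.95 ± 0.23 (adjusted p = 0.000489). Of the 10 blood endothelium genes, 2 had a called interaction, Kdr and Emcn, and the median of the 10 was 0.06. Group means of Kdr were 6.48 in AP from VAT and 5.10 in AP from SAT, against 7.92 in AT from VAT and 8.50 in AT from SAT. Tek was called lower in VAT than in SAT among progenitors, where Kdr was called higher.

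Nrp1, the co-receptor for Sema3a and VEGF-A, was highest in whole subcutaneous tissue. It had 8.15, 8.20 and 8.62 in AP from VAT and 8.43, 8.50 and 8.50 in AP from SAT, against 8.47, 8.64 and 8.39 in AT from VAT and 8.95, 9.03 and 9.11 in AT from SAT. The AT arrays from SAT lay above all others, and the remaining groups overlapped. Nrp1 fell by 0.55 ± 0.12 in AP from SAT relative to AT from SAT (adjusted p = 0.0024), a difference of -0.04 with housekeeping scaling, and in VAT it differed by -0.18 (95% interval -0.44 to 0.09, adjusted p = 0.313; 0.36 with housekeeping scaling). In VAT relative to SAT it fell by 0.53 ± 0.12 among whole tissues (adjusted p = 0.0219), and among progenitors the difference was -0.15 (adjusted p = 0.675). The depot call in AT was lost with housekeeping scaling and without replicate 1 or 3 of AT from VAT or replicate 2 or 3 of AT from SAT (adjusted p up to 0.0916), and the difference in VAT passed without replicate 3 of AP from VAT (-0.33, adjusted p = 0.036). The interaction was 0.38 (adjusted p = 0.371).

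Plxnd1, the receptor of Sema3e on endothelium and a gene linked to body fat distribution in human genetics and in zebrafish, varied least of the 10 genes between groups. It had 8.55, 8.27 and 8.36 in AP from VAT and 8.45, 8.59 and 8.46 in AP from SAT, against 8.39, 8.51 and 8.67 in AT from VAT and 8.15, 8.08 and 8.39 in AT from SAT. Its group means spanned 0.32 log2 units, and no neighbours in their order differed by the test. None of the 6 contrasts passed on the deposited scale: AP minus AT was 0.29 in SAT (95% interval 0.04 to 0.54, adjusted p = 0.0712) and -0.13 in VAT (adjusted p = 0.443). Without replicate 3 of AT from SAT, the difference in SAT was 0.39 (adjusted p = 0.0277). With housekeeping scaling Plxnd1 was called in SAT (0.81) and over both depots (0.61, adjusted p = 2.18e-05), and the difference in VAT turned to 0.41. The group means of its ligand Sema3e spanned 3.02 log2 units.

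Groups of the same genes could also be compared by whether their arrays overlapped. AP and AT did not overlap for 10 of 10 genes in SAT, where this held for 44.6% of all genes, and for 5 of 10 in VAT, where it held for 40.9%. VAT and SAT did not overlap for 5 of 10 in AP (20.4% of all genes) and for 5 of 10 in AT (18.1%). Sema3b, Sema3e and Sema3f were in all of these sets, and Sema3a and Plxnd1 only in the first.

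Housekeeping scaling changed several of these calls, but its reference genes were not themselves constant. As deposited, 9 of the 10 housekeeping genes were called in AP against AT over both depots, 5 higher and 4 lower (median 0.12). The median of their differences was 0.20 in SAT and -0.06 in VAT. The scaling used the median of their levels in each array instead, and it moved all genes up in AP relative to AT. These summaries of the same genes disagree, so calls lost or gained and signs turned with this scaling hold for that setting only. Over all genes 42.5% were called there. Which scale is nearer to the true levels was not tested. With every array brought to the same housekeeping median, taken from 10 genes, the median AP minus AT difference of all genes became 0.54 in SAT and 0.57 in VAT, and 16199 of 17602 called genes in SAT and 16398 of 17692 in VAT were higher in AP, against 3571 of 7186 and 3507 of 7239 with the values as deposited. The shift is common to all genes of an array, so differences between genes within a contrast are as given above. On that scale Nrp2 was still lower in AP in SAT (-0.55) and the difference over both depots became 0.16 for Nrp1 and 0.06 for Nrp2. Sema3a over both depots was 0.71 (adjusted p = 3.15e-05 in limma), against 0.18 (adjusted p = 0.178) as deposited, and in VAT Sema3a turned to 0.50 and Sema3c to 0.49.

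The class 3 ligands lie in part side by side in the genome, as RefSeq orders them. Sema3d, Sema3a, Sema3e and Sema3c follow each other on chromosome 5, with 0 protein-coding genes between Sema3d and Sema3a, 3 between Sema3a and Sema3e and 15 between Sema3e and Sema3c. Sema3b and Sema3f lie on chromosome 9 with Gnai2, Slc38a3 and Gnat1 between them. Neighbours did not share one pattern: Sema3b was lower and Sema3f higher in VAT than in SAT among progenitors, and the log2 differences on chromosome 5 were -0.08 for Sema3d, -0.21 for Sema3a, -2.39 for Sema3e and -0.97 for Sema3c.

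Genes with patterns most like those of the members were found by the root mean square difference over 12 arrays after centring each gene on its own mean, for the 6 members whose group means spanned at least 1 log2 unit. They were Efhd1 (0.24 log2 units) and Plac8 (0.28) for Sema3e, Emilin2 (0.12) and Ackr2 (0.15) for Sema3b, and Rarg (0.21) and Mir199b (0.21) for Sema3c. For Sema3d they were Pcdhga10 (0.11) and Igf1r (0.16), for Sema3f Cys1 (0.13) and Cep170b (0.14), and for Nrp2 Deptor (0.19) and Itga1 (0.20). Efhd1, for example, averaged 6.15 in AP from VAT and 8.35 in AP from SAT, against 5.11 in AT from VAT and 6.39 in AT from SAT. All group means of Mir199b lay under 4.09. Among the members themselves the closest pairs were Sema3a with Plxnd1 (0.22), Sema3g with Nrp1 (0.29) and Nrp1 with Nrp2 (0.31). This measure is small for any genes that vary little. The group means of Sema3a, Plxnd1, Sema3g and Nrp1 spanned 0.40, 0.32, 0.57 and 0.71, under the 1 log2 unit set above. Closeness of these pairs therefore need not mean a shared pattern.

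The rest of the pathway was taken from lists of genes by function. In AP relative to AT over both depots, 22% of all genes were called higher and 20.5% lower, and with housekeeping scaling 17932 of 22180 genes were called higher. Of 8 other plexins, 4 rose and 2 fell, with a median of 0.35, and with housekeeping scaling 6 rose and 2 fell. Plxnb2 rose by 1.16 ± 0.11 and Plxnb1 by 0.89 ± 0.14, both receptors of class 4 semaphorins, while Plxnc1, the receptor of Sema7a on leukocytes, fell by 1.22 ± 0.13 and Plxna2 fell by 0.91 ± 0.11. Plxna4, which transmits Sema3a signals with Nrp1, was the plexin with the largest depot difference among progenitors, higher by 1.96 ± 0.18 in VAT than in SAT (limma adjusted p = 3.77e-06). Plxna2 rose there by 0.64 and Plxna1 fell by 0.73, and the other 5 did not pass. In that contrast 5.64% of all genes were called, 3.03% higher and 2.6% lower.

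Of 13 semaphorins of other classes, 5 rose and 3 fell in AP over both depots, with a median of 0.09, and with housekeeping scaling 9 rose and 1 fell. Sema4c rose by 1.03 ± 0.10 and Sema5a by 0.77 ± 0.10, while Sema4a, known from immune cells, fell by 1.40 ± 0.10 and Sema7a fell by 0.75 ± 0.10; with housekeeping scaling the falls of Sema7a (-0.22) and Sema6a were not called. Among progenitors, 2 of the 13 were called between depots, Sema5a (0.80) and Sema4a (0.61), both higher in VAT. Over all genes 5.64% were called there. Co-receptors of the complex had 4 of 7 higher in AP and none lower (6 of 7 higher with housekeeping scaling), among them Robo1 (1.22) and the adhesion protein Nrcam (1.17), and none was called between depots in AP.

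Inside the cell, 11 of 21 listed plexin effectors rose in AP over both depots and 2 fell, with a median of 0.35 beside 0.04 for all genes, and with housekeeping scaling 20 rose and 0 fell. Mical1, an enzyme that oxidises actin filaments downstream of plexins, rose by 1.57 ± 0.09, and Dpysl2 (CRMP2), which mediates Sema3a-induced growth cone collapse, rose by 1.50 ± 0.12. Mical3 fell by 0.38 and the kinase Fes fell by 0.27, but with housekeeping scaling these differences were 0.14 and 0.26. Between depots 1 of the 21 was called in AP, Mical2, higher in VAT by 0.51. That share was near the 5.64% of all genes called there.

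Proteases that cut semaphorins rose in 4 of 6 cases and fell in 1 in AP over both depots, and with housekeeping scaling 5 rose and 0 fell. Adamts1, which releases Sema3c from the matrix, rose by 3.19 ± 0.10, and the furin-like convertase Pcsk6 rose by 1.02 ± 0.10, while Adam10 fell by 0.53 ± 0.09, a call lost with housekeeping scaling. Pcsk6 was lower in VAT than in SAT among progenitors (-0.63), as was Adam17 (-0.48), and both calls were lost with housekeeping scaling. Of 8 VEGF ligands and receptors that share neuropilins, 3 rose and 5 fell in AP over both depots, with a median of -0.74, and with housekeeping scaling the fall of Flt4 was not called. Vegfd rose by 1.40 ± 0.12 and Pgf by 1.02 ± 0.10, and Kdr fell by 2.42 ± 0.12 and Vegfb fell by 2.02 ± 0.07. Among progenitors Vegfc, the Nrp2 ligand that drives lymphatic growth, was 1.56 higher in VAT than in SAT, Kdr was 1.37 higher, and Vegfa fell by 1.63 in VAT.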

How the data were processed

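RNA of 12 samples was hybridised to Affymetrix mouse arrays. The authors summarised and normalised each array's probe sets to log2 intensities with RMA in Affymetrix Expression Console 1.3.0.187, per the submitters' processing notes. The annotation library and level of summary are not given in the sources used here, and base 2 of the log was taken from the method and the range (1.69 to 13.48). Of 41345 probe sets, 23521 had 1 gene, and for each of the resulting 22180 genes the probe set of highest mean was kept.

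From these values, limma 3.58.1 (R 4.3.3) gave 6 contrasts, each over all 12 arrays with a mean for every group and no filter. Tests were 2-sided and adjusted by Benjamini-Hochberg over all genes within a contrast. The labels call the replicates biological, but which animals made up each one is not stated. The p-values therefore cover only the spread among these samples. The 10 genes, the pathway and marker lists and the tests were chosen with earlier results of these data known. All 10 genes were described whatever their result. Of each pathway list, up to 2 called genes of largest rise and 2 of largest fall were named, in AP minus AT over both depots and in VAT minus SAT in AP. Marker genes were named in checks of the arrays or beside results of the 10 genes, whether or not they moved with them. Genes of like pattern leave out predicted genes.

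The labels do not say whether same-numbered arrays share animals, and the arrays were treated as unpaired. Of 18 same-numbered pairs, 3 correlated in their deviations above 0.1 (range -0.28 to 0.16). With 3 arrays in each group this cannot decide whether they were paired. The code was tested on simulated data: for VAT minus SAT in AP over 22180 genes, 19 of 50 genes with a true difference of 0.5 were recovered, 48 of 50 at 1, and 50 of 50 each at 2 and 4, with 8 false calls. Alternatives were the replicate block, trend and robust fits, the compared groups alone, quantile and housekeeping scaling, a filter on dim genes, the mean over probe sets, and leaving out each array.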

Additional observations from a re-analysis of the deposited data

Results flagged for a closer look

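The difference between depots was itself different in AP and AT, by the interaction term of limma, for 2 of the 10 genes and 4 of the 63 other genes of the pathway lists, where 2.15% of all genes had such a difference. For Sema3c the interaction was -1.17 (adjusted p = 0.0496), from a VAT minus SAT difference of -0.97 in AP and 0.20 in AT, and the call was lost when any 1 of 11 of the 12 arrays was left out. For Nrp2 it was 1.18 (adjusted p = 0.0058), from 0.62 in AP and -0.56 in AT. Sema4a had an interaction of 0.98 (adjusted p = 0.0193), from 0.61 in AP and -0.37 in AT. Pcsk6 had one of -0.99 (adjusted p = 0.0206), from -0.63 in AP and 0.36 in AT. Kdr had one of 1.95 (adjusted p = 0.000489), from 1.37 in AP and -0.58 in AT. Vegfa had one of -0.93 (adjusted p = 0.0313), from -1.63 in AP and -0.70 in AT, so that its depot difference had the same sign in both materials.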

How the results depend on the processing

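With housekeeping scaling, 17602 genes were called for AP against AT in SAT, 17692 in VAT and 19518 over both depots, and 8 of the 10 genes were called in VAT and 2 for the depots in AT. That scaling turned the sign of AP minus AT in VAT for Nrp1 (0.36), Plxnd1 (0.41), Sema3a (0.50), Sema3c (0.49) and Sema3g (0.047), over both depots for Nrp1 (0.16) and Nrp2 (0.055), and of VAT minus SAT for Plxnd1 (0.027) and Sema3d (0.053) in AP and Sema3g (0.067) in AT. Of these, the values called as deposited were those of Sema3g in VAT and of Nrp1 and Nrp2 over both depots. Quantile normalization turned Sema3c in VAT (0.069). With only the compared groups, 601 genes were called for the depots in AT; this setting gives no value for contrasts that use all arrays. The interaction was called for 1 of the 10 genes, Nrp2, with housekeeping scaling, quantile normalization, the mean over probe sets, and the replicate block as a fixed term or a random effect. The block called 7013 genes for AP against AT in SAT, 6968 in VAT and 417 for the interaction, with 5 of 12 arrays correlating best with their own number. Beside the Sema3c interaction, the AP rise of Sema3a in SAT was lost with the block as a fixed term (adjusted p = 0.0605) or a random effect (0.0542), with trend and robust fits (0.0518) and with only the compared groups (0.0769). The depot call of Nrp2 in AT was lost with the fixed block (0.0504), AP against AT was gained for Sema3e in VAT with only the compared groups (0.0389), and for Plxnd1 in SAT with quantile normalization (0.0449). The filter on dim genes left all 10 genes and changed no direction or call among them.

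Leaving out each array in turn gave 6110 to 7341 genes called for AP against AT in SAT, 6027 to 7432 in VAT, 8623 to 9644 over both depots, 849 to 1374 for the depots in AP, 660 to 1026 in AT and 264 to 626 for the interaction. Of the 10 genes it gave 8 to 10 in SAT, 4 to 5 in VAT, 8 over both depots, 3 to 5 for the depots in AP, 2 to 4 in AT and 1 to 4 for the interaction. Signs turned only for differences that were not called: AP minus AT in VAT for Sema3a (-0.11 to 0.053) and Sema3c (-0.15 to 0.12), VAT minus SAT in AP for Sema3d (-0.25 to 0.048) and Sema3g (-0.027 to 0.078), in AT for Sema3d (-0.19 to 0.26) and Sema3g (-0.17 to 0.073), and the interaction for Sema3d (-0.34 to 0.11) and Sema3g (-0.037 to 0.20). The cause of these changes was not tested. For Sema3a, 1 array of AT from SAT lay below 4.09, the 40th percentile of all probe sets. What this meant for its calls was not tested.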
